A study of Mus musculus with 13 samples.

Results

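The genes described here are 10 genes that astrocytes are known to raise when the brain is injured or inflamed: Gfap, Vim, Serpina3n, A2m, Timp1, Lcn2, Cd44, Osmr, S1pr3 and Steap4. They are a list of names rather than genes picked by a cut on their levels, but the list was chosen with earlier results of these data known. Each of the 10 matched 1 of the 48795 genes in the deposited table. Their mRNA was read by RNA sequencing in the right brain hemisphere, freed of olfactory bulb and cerebellum, of 13 mice at postnatal day 11. All mice had a C57BL/6J strain background.

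The 5 nlsYAP5SA mice had the genotype NexCre +/- YAP5SAnls +/-. Their transgene encodes a nuclear form of the transcriptional coactivator YAP1 that inhibitory kinases cannot phosphorylate, and it is silent until Cre removes a floxed stop signal. Cre came from the NEX (Neurod6) locus, which is active in neural precursors beside the ventricles and in the pyramidal neurons of cortex and hippocampus. Mice of this line develop tumours next to the ependymal layer, and no label says how much tumour a sequenced hemisphere held. The 5 controls were littermates with the genotype NexCre -/- YAP5SAnls +/-, which carried the transgene without Cre. Littermates came from 2 matings, and the labels do not assign a mouse to a litter. The 3 C57BL/6 mice were age-matched, wild-type and not littermates. Mice of either sex entered the study, and no label records the sex.

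Astrocytes are glial cells that contact synapses, vessels and the ventricle wall. Reactive astrocytes thicken their intermediate filaments, secrete protease inhibitors and acute-phase proteins, and raise receptors for cytokines and matrix, in part through cytokines of the interleukin-6 family, their shared receptor subunit gp130 and the transcription factor STAT3. The 10 genes are not exclusive to astrocytes, since vimentin and CD44 are also made by vascular, immune and progenitor cells and lipocalin 2 by neutrophils and choroid plexus. In RNA of a whole hemisphere, a change in the number of cells of a type and a change in RNA per cell cannot be told apart, nor can RNA of tumour cells and of the tissue around them.

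Libraries held between 20871566 and 25524349 estimated counts, and the totals of the groups overlapped. Levels are given as CPM, counts scaled to a common library size with TMM over all 13 samples. Yap1 lay between 19.96 and 22.3 CPM in controls and between 22.6 and 26.6 CPM in nlsYAP5SA mice. Its log2 fold change was 0.23 (adjusted p = 0.0361, edgeR). Whether the Yap1 counts include reads of the transgene was not tested. Neurod6, the locus that carries Cre, fell by 0.98 on the log2 scale (adjusted p = 2.65e-05, edgeR). The cerebellar markers Gabra6, Pcp2 and Cbln3 summed to between 0.448 and 1.31 CPM in every mouse. The Y-linked genes Ddx3y, Uty, Kdm5d and Eif2s3y summed to at least 2225 counts in 9 mice, namely all 5 controls, nlsYAP5SA replicates 3 and 4 and C57BL/6 replicates 1 and 3, and to at most 2 counts in the other 4.

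The reactive genes were higher in nlsYAP5SA mice than in control littermates. A gene was called where edgeR's quasi-likelihood test, adjusted over 16315 genes by the Benjamini-Hochberg method, gave a p of 0.05 or less. By this rule 9 of the 10 rose and none fell, whereas 7.36% of all genes tested rose, 3.44% fell and 10.8% changed in either direction. The exception was S1pr3. Since the list was chosen with earlier results of these data known, these shares are a description and not an independent test. The median log2 fold change of the 10 was 1.77, beside -0.01 over all genes tested. In 8 of the 10, every nlsYAP5SA mouse lay above every control, which held for 6.5% of all genes tested (10.1% in either direction). Timp1 and S1pr3 overlapped. All 10 passed the filter on low counts, but 3 of them did so mainly through the nlsYAP5SA mice: at the filter's minimum stood 1 of 5 controls for Timp1, 1 for Steap4 and none for Lcn2, against 5 of 5 nlsYAP5SA mice for each. These 3 entered the test only because the level was high in nlsYAP5SA mice, and Lcn2 and Steap4 are also among the 8 without overlap. Of the 7 genes with at least 10 counts in every sample, 6 were called, all higher. At that filter 1086 of 15094 genes rose and 518 fell.

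**Figure D1:**
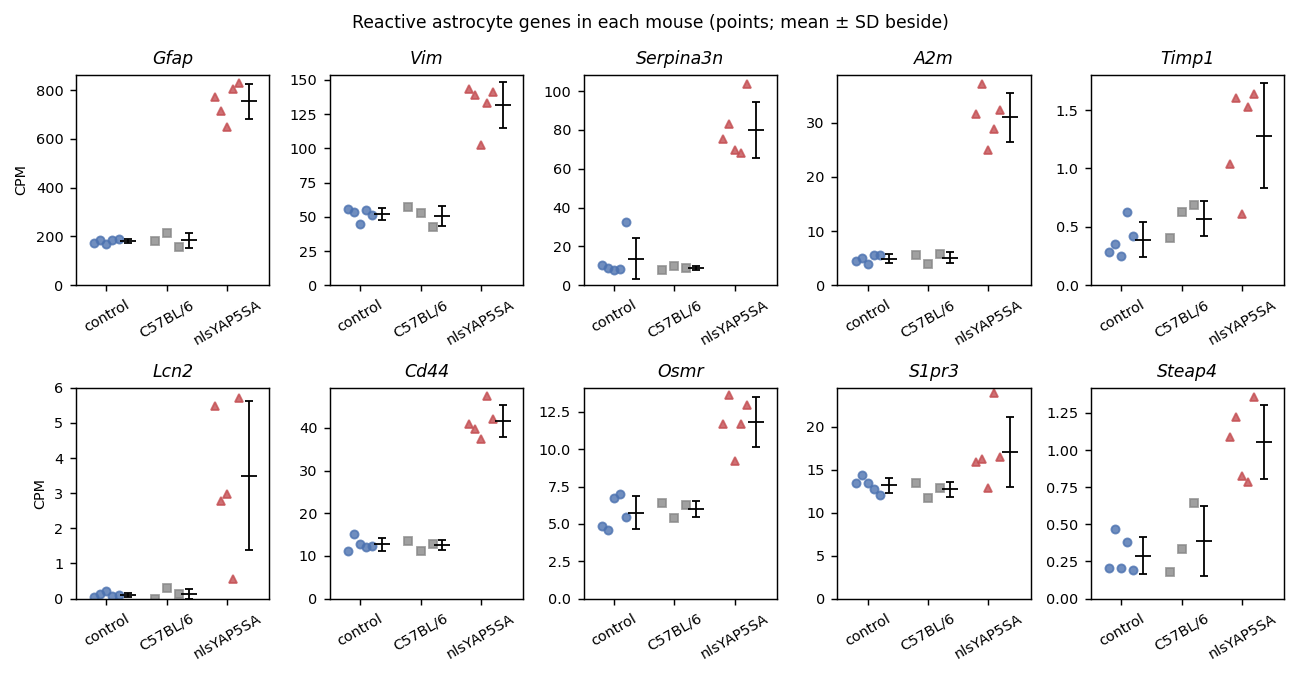
Level of each of the 10 genes (CPM, vertical axes start at 0 and differ between panels) in each mouse, with circles for controls, squares for C57BL/6 and triangles for nlsYAP5SA mice; the bar beside each group is the mean ± SD (n = 5, 3 and 5). Gfap sits between 155 and 215 CPM in all 8 mice without active Cre and between 648 and 831 CPM in nlsYAP5SA mice, while for S1pr3 the groups overlap.

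Promoters of 9 of the 10 genes (all but A2m) were matched in RefSeq's table for GRCm38.p6, each from 250 bases before to 50 bases after the annotated start. They were searched on both strands for the letters of 3 factors' motifs. These were TTCNNNGAA, which STAT factors bind, GGAATG, which the TEAD partners of YAP1 bind, and TGANTCA. The last is a loose form of the AP-1 motif with any middle base, where AP-1 prefers C or G. TTCNNNGAA stood in 2 of the 9 promoters (Gfap and Steap4) and in 8.3% of all 32851 promoters, GGAATG in 1 (Timp1) and in 14.7%, and TGANTCA in 1 (Osmr) and in 7.81%. No motif overlapped another. Positions count from the start, with no base 0: the first base of the match was at -2 in Gfap, -116 in Steap4, -247 in Timp1 and 4 in Osmr. The 4 promoters with a match, all of genes called higher against control, are shown so that the match can be read in its context. They are printed on the gene's strand, with the match in capitals. They lie at chr11:102897151-102897450 (minus strand, Gfap), chr5:7960222-7960521 (plus strand, Steap4), chrX:20869916-20870215 (plus strand, Timp1) and chr15:6874264-6874563 (minus strand, Osmr). A match of letters is not a measured binding site, and the one in Osmr (TGATTCA) has T as its middle base. The RefSeq starts of Gfap, Osmr and Steap4 lie inside the longer gene spans of GENCODE.
Gfap: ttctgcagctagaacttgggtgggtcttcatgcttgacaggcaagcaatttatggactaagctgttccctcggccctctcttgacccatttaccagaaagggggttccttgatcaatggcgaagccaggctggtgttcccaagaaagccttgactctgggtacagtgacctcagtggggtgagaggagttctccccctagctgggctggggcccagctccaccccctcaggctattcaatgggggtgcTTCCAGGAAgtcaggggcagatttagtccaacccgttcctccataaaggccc
Steap4: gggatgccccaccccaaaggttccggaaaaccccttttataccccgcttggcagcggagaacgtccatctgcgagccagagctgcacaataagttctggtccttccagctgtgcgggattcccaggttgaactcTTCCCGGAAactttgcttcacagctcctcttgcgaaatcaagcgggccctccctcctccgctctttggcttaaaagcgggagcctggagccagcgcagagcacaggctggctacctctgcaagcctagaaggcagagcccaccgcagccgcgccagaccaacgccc
Timp1: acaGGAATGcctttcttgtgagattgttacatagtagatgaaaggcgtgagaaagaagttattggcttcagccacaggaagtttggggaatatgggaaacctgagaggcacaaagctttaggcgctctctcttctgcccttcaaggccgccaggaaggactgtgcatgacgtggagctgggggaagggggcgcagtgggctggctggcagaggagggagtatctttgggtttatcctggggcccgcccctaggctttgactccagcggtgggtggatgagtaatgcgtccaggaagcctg
Osmr: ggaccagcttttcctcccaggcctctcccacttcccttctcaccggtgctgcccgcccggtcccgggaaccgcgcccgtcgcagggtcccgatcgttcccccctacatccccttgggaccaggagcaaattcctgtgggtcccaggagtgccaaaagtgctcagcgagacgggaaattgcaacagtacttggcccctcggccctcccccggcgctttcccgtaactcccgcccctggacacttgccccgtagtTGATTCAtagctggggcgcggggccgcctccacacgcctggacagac

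The set holds 2 filament genes. Gfap encodes glial fibrillary acidic protein, the main intermediate filament protein of astrocytes (ENSMUSG00000020932, GRCm38 chromosome 11, 102887336 to 102900912, minus strand). Its level was 173, 185, 170.2, 187 and 189 CPM in control replicates 1 to 5. In nlsYAP5SA replicates 1 to 5 it was 771, 714, 648, 806 and 831 CPM, and in C57BL/6 replicates 1 to 3 it was 181, 215 and 155 CPM. The lowest nlsYAP5SA mouse stood above the highest mouse of either other group, and the 5 controls lay closer together than for any other gene of the 10, with a coefficient of variation of 4.70%. The means were 181 ± 8.51 CPM in controls and 754 ± 73.5 CPM in nlsYAP5SA mice (SD, n = 5 each), and Gfap rose by 2.06 on the log2 scale (SE 0.07, adjusted p = 1.34e-08, edgeR). An antisense gene, Gm26668, lies over Gfap but held at most 13.2 counts in a library.

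Vim encodes vimentin, which forms filaments together with GFAP in reactive astrocytes (ENSMUSG00000026728, chromosome 2, 13573927 to 13582826, plus strand). Controls had 55.5, 53.3, 44.6, 55.1 and 51.4 CPM. nlsYAP5SA mice had 143, 139, 103, 133 and 141 CPM, and C57BL/6 mice 56.9, 52.7 and 42.4 CPM. No nlsYAP5SA mouse overlapped another group, and replicate 3 stood below the other 4. The log2 fold change against control was 1.34 (SE 0.09, adjusted p = 2.83e-06, edgeR). Of 4 other filament proteins and linkers (Nes, Des, Synm and Plec), none was called in either direction, with log2 fold changes from -0.23 (Nes) to 0.08 (Plec).

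Serpina3n encodes a secreted inhibitor of serine proteases of the acute phase (ENSMUSG00000021091, chromosome 12, 104406729 to 104414329, plus strand). Control replicates 1 to 4 had 10.2, 9.12, 7.88 and 8.61 CPM and control replicate 5 had 32.8 CPM, 3.70 times the median of the other 4. nlsYAP5SA mice had 75.3, 83.2, 69.8, 68.3 and 104 CPM, and C57BL/6 mice 8.07, 9.92 and 8.96 CPM. Even the high control stood below every nlsYAP5SA mouse. The log2 fold change was 2.55 (SE 0.35, adjusted p = 0.000483, edgeR), and 3.15 (SE 0.14, adjusted p = 4.12e-07) without control replicate 5, a linear change of more than 1.5 times.

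Serpina3n has near-identical neighbours, and its count was not whole in 12 of 13 libraries, whereas the counts of the other 9 genes were whole in all. It held 91.8% of the reads of the 11 serpin A3 genes in controls and 98.1% in nlsYAP5SA mice. The liver-type paralogs Serpina3m, Serpina3h and Serpina3k had 22, 9.64 and 2 counts in control replicate 5 and 42.0, 11.7 and 4 counts in nlsYAP5SA replicate 5, the mouse with the highest Serpina3n. In the other 11 mice none of these 3 exceeded 3 counts. Whether this moved the value of Serpina3n was not tested. Of the 10 paralogs 1 passed the filter, Serpina3g, with a log2 fold change of -0.35 (adjusted p = 0.591, edgeR).

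A2m encodes alpha-2-macroglobulin, which traps proteases of many classes (ENSMUSG00000030111, chromosome 6, 121635376 to 121679227, plus strand). Controls had 4.42, 4.97, 3.92, 5.67 and 5.67 CPM. nlsYAP5SA mice had 31.5, 37.2, 25.01, 28.7 and 32.4 CPM, and C57BL/6 mice 5.51, 3.98 and 5.85 CPM. Every nlsYAP5SA mouse was far above both other groups, and the log2 fold change of 2.65 (SE 0.13, adjusted p = 1.77e-07, edgeR) came next to that of Lcn2 with all mice included. Without control replicate 5 it was 2.701, below the 3.15 of Serpina3n, which also exceeded A2m against C57BL/6 mice. A2m held 97.5% of the reads of the macroglobulin genes A2m, Pzp, Mug1 and Mug2 in controls and 99.6% in nlsYAP5SA mice. Cd109, a membrane-anchored relative, rose as well (log2 fold change 1.38), and the receptor gene Lrp1 had 0.04 (adjusted p = 0.864, edgeR).

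Timp1 encodes a secreted inhibitor of matrix metalloproteinases (ENSMUSG00000001131, chromosome X, 20870166 to 20874735, plus strand). It was scarce, with 6 to 15 counts in a control library and 14 to 35 in an nlsYAP5SA library. In CPM the controls had 0.286, 0.352, 0.250, 0.630 and 0.425, the nlsYAP5SA mice 1.04, 1.60, 0.607, 1.52 and 1.64, and the C57BL/6 mice 0.404, 0.623 and 0.686. nlsYAP5SA replicate 3 lay below control replicate 4 and C57BL/6 replicates 2 and 3, and the other nlsYAP5SA mice lay above all mice of both groups. The log2 fold change was 1.71 (SE 0.33, adjusted p = 0.00494, edgeR). The call was lost with the Y-linked level as a covariate (adjusted p = 0.0956) and among mice with Y-linked expression only (adjusted p = 0.213), and the difference from C57BL/6 mice was not called (adjusted p = 0.110, edgeR). Timp1 lies within the neuronal gene Syn1 on the opposite strand, which had up to 12492 counts in a library, and no strand setting is stated. The counts of Timp1 were whole in all 13 libraries. Syn1 itself had a log2 fold change of -0.14 (adjusted p = 0.203, edgeR). Timp1 made up 0.0733% of the reads of the 4 TIMP genes in controls and 0.173% in nlsYAP5SA mice. Timp3 and Timp2 also rose (log2 fold changes 0.92 and 0.33), as did Cd63, a surface partner of TIMP1 (0.37), and the proteases Mmp2 (0.39) and Mmp14 (0.28), so that 5 of 7 tested genes of this list were called, and 2 of 7 (Timp2 and Timp3) against C57BL/6 mice.

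Lcn2 encodes lipocalin 2, a secreted protein that binds bacterial siderophores (ENSMUSG00000026822, chromosome 2, 32384633 to 32388252, minus strand). It was close to absent without active Cre, with 1 to 5 counts in a control library and 0, 6 and 3 counts in the C57BL/6 libraries, where a count of 0 allows up to 3. nlsYAP5SA replicates 1 to 5 had 121, 59, 69, 13 and 122 counts, which is 5.47, 2.78, 2.99, 0.565 and 5.71 CPM, against 0.0409 to 0.208 CPM in controls. Replicate 4 stood below the other 4 nlsYAP5SA mice but above every control and C57BL/6 mouse. The log2 fold change of 4.93 (SE 0.65, adjusted p = 0.000315, edgeR) was the highest of the 10 and rests on few control counts. Of the genes for 2 reported lipocalin 2 receptors, Lrp2 (megalin) rose with a log2 fold change of 3.40, and Slc22a17 had -0.11 (adjusted p = 0.403, edgeR).

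Choroid plexus is a known source of Lcn2, and its content varied between hemispheres: Ttr, its dominant transcript, ranged from 0.822 to 217 CPM in controls and from 0.783 to 276 CPM in nlsYAP5SA mice. nlsYAP5SA replicate 4 had the lowest Ttr and the lowest Lcn2 of its group, but replicate 5, with the highest Lcn2, had 55.2 CPM of Ttr beside 138 to 276 CPM in replicates 1 to 3. Control replicate 1 had the highest Ttr of the controls, 217 CPM, and the lowest Lcn2, 1 count, while C57BL/6 replicates 1 to 3 had 1.52, 158 and 239 CPM of Ttr beside 0, 6 and 3 counts of Lcn2. With the level of Ttr as a covariate, chosen after seeing the data, the log2 fold change of Lcn2 was 4.36 (adjusted p = 0.00148, edgeR). How much Lcn2 came from choroid plexus was not tested. Of the 6 choroid plexus markers, which summed to 9.55 to 234 CPM in controls and 12.3 to 305 CPM in nlsYAP5SA mice, 1 rose (Folr1) and none fell. The neutrophil markers S100a8, S100a9 and Ngp had means of at most 0.100 CPM in both groups and were not tested.

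Cd44 encodes the main surface receptor for hyaluronan (ENSMUSG00000005087, chromosome 2, 102811141 to 102901665, minus strand). Controls had 11.2, 15.2, 12.7, 12.1 and 12.3 CPM. nlsYAP5SA mice had 40.9, 39.7, 37.4, 47.6 and 42.2 CPM, and C57BL/6 mice 13.5, 11.2 and 12.9 CPM. The nlsYAP5SA mice formed a tight group apart from the others, with a log2 fold change of 1.71 (SE 0.09, adjusted p = 2.89e-07, edgeR). Among 6 genes for CD44 ligands, hyaluronan synthases and other hyaluronan receptors, 2 rose and none fell. Spp1, which encodes the CD44 ligand osteopontin, went from 5.11 ± 0.670 to 43.1 ± 16.0 CPM (SD, n = 5 each, log2 fold change 3.08), and Has2, a hyaluronan synthase, had 0.92. Against C57BL/6 mice 1 of the 6 rose (Spp1) and none fell.

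Osmr encodes the receptor subunit that pairs with gp130 to bind oncostatin M (ENSMUSG00000022146, chromosome 15, 6813577 to 6874969, minus strand). Controls had 4.83, 4.58, 6.75, 7.01 and 5.48 CPM, nlsYAP5SA mice 11.7, 13.7, 9.23, 11.7 and 12.9 CPM, and C57BL/6 mice 6.37, 5.42 and 6.26 CPM. The nlsYAP5SA mice lay above both other groups, which overlapped each other, and the log2 fold change against control was 1.04 (SE 0.14, adjusted p = 0.000375, edgeR), the smallest among the 9 that were called. Of 18 genes for ligands, receptors and effectors of the gp130 and STAT3 pathway, 14 were tested, 6 rose and none fell, with a median log2 fold change of 0.31. Socs3, a feedback inhibitor induced by STAT3, rose by 1.52 and Stat3 by 0.53 (adjusted p = 6.26e-05, edgeR). Against C57BL/6 mice 3 of 15 tested genes of this list rose (Stat3, Il6ra and Socs3) and none fell. Against control, the ligands Cntf and Clcf1 each rose by 1.13, and the receptor Il6ra by 0.97. Clcf1, which is also counted among the genes of the A2 type, had 5 to 9 counts in a control library and 12 to 20 in an nlsYAP5SA library, and thus entered the test through the nlsYAP5SA mice. Il6st, which encodes gp130, had 0.39 (adjusted p = 0.0589, edgeR). Oncostatin M itself (Osm) was too low to test, at 0.0853 ± 0.0458 CPM in controls and 0.218 ± 0.120 CPM in nlsYAP5SA mice (SD, n = 5 each). Lif was likewise not tested, at 0.105 ± 0.0962 and 0.822 ± 0.435 CPM, without overlap between the groups.

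S1pr3 encodes a G protein-coupled receptor for sphingosine 1-phosphate (ENSMUSG00000067586, chromosome 13, 51408639 to 51422797, plus strand). Controls had 13.5, 14.4, 13.4, 12.7 and 12.05 CPM, nlsYAP5SA mice 15.9, 16.2, 12.9, 23.9 and 16.4 CPM, and C57BL/6 mice 13.5, 11.7 and 12.8 CPM. nlsYAP5SA replicate 3 lay within the control range, and the other 4 stood above it. The log2 fold change of 0.37 (SE 0.14, adjusted p = 0.111, edgeR) missed the threshold. Single mice moved it: it was 0.45 (adjusted p = 0.0374) without nlsYAP5SA replicate 3 and 0.21 (adjusted p = 0.161) without replicate 4, and 0.46 (adjusted p = 0.0322) with Ttr as a covariate. Of 7 tested genes for other S1P receptors and the enzymes and transporter of S1P, Sgpl1, the lyase that degrades it, rose (0.38) and S1pr5, a receptor of the oligodendrocyte lineage, fell by 0.78 on the log2 scale.

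Steap4 encodes a membrane metalloreductase of iron and copper (ENSMUSG00000012428, chromosome 5, 7960457 to 7982213, plus strand). It had 4 to 12 counts in a control library and 18 to 29 in an nlsYAP5SA library. In CPM the controls had 0.204, 0.470, 0.208, 0.378 and 0.189, the nlsYAP5SA mice 1.08, 1.22, 0.823, 0.783 and 1.36, and the C57BL/6 mice 0.179, 0.335 and 0.646. The nlsYAP5SA mice did not overlap the others, with a log2 fold change of 1.82 against control (SE 0.30, adjusted p = 0.00155, edgeR). The call was lost among mice with Y-linked expression only (adjusted p = 0.160, edgeR). The difference from C57BL/6 mice was not called (adjusted p = 0.0695, edgeR). Of its 3 paralogs Steap1 rose (0.82), and Steap2 and Steap3 had -0.02 and -0.44 (adjusted p = 0.922 and 0.101, edgeR). Against C57BL/6 mice none of the 3 was called.

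**Figure D2:**
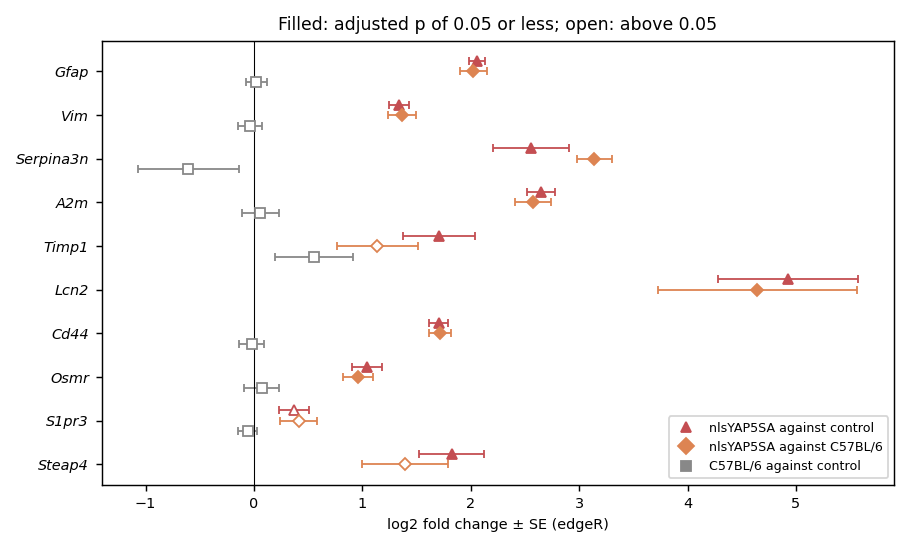
log2 fold change (horizontal axis, ± SE, edgeR) of each gene in nlsYAP5SA against control (triangles), nlsYAP5SA against C57BL/6 (diamonds) and C57BL/6 against control (squares); filled symbols have an adjusted p of 0.05 or less. All 10 genes are to the right of 0 in both comparisons of nlsYAP5SA mice, and the 8 squares, all open, lie between -0.60 (Serpina3n) and 0.56 (Timp1).

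Controls without Cre and wild-type mice did not differ detectably in these genes. This comparison asks whether the silent transgene or the separate breeding of the C57BL/6 mice moved them, and it shares its controls with the comparison above. None of the 8 genes tested was called, beside 0.169% of all 16546 genes (0.0484% higher and 0.121% lower). Lcn2 and Steap4 did not pass the filter. None had an unadjusted p of 0.05 or less in edgeR or in DESeq2, which tested all 10. The ranges of the groups overlapped for each of the 10, while 3.34% of all genes tested were without overlap, 1.95% with every C57BL/6 mouse higher. With 3 C57BL/6 mice the errors were wide for some genes, as for Serpina3n at -0.60 (SE 0.47) and Timp1 at 0.56 (SE 0.36).

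Against the C57BL/6 mice, 7 of the 10 genes rose in nlsYAP5SA mice and none fell, beside 4.16% of 16641 genes that rose and 2.22% that fell (6.38% in either direction). Lcn2 entered this test through the nlsYAP5SA mice alone. At the filter's minimum were 5 of 5 of them and 0 of 3 C57BL/6 mice. Among the 7 genes with at least 10 counts in every sample, 6 were called, all higher. At that filter 594 of 15103 genes rose and 355 fell. Without C57BL/6 replicate 1 Lcn2 was no longer called. Among mice with Y-linked expression only, 2 against 2, the 4 genes Gfap, Serpina3n, A2m and Cd44 were called, while 0.261% of all genes rose, and Vim, Osmr and Lcn2 were not called. This comparison uses the same nlsYAP5SA mice as the first. The log2 fold changes were 2.02 for Gfap, 1.37 for Vim, 3.14 for Serpina3n, 2.58 for A2m, 1.71 for Cd44, 0.96 for Osmr and 4.64 for Lcn2. Timp1 (1.14, adjusted p = 0.110), Steap4 (1.39, adjusted p = 0.0695) and S1pr3 (0.41, adjusted p = 0.206) did not pass edgeR's test. DESeq2 called 8 genes higher, Steap4 among them, beside 923 higher and 611 lower among 17581 genes. Every nlsYAP5SA mouse lay above every C57BL/6 mouse in 8 of the 10 genes, beside 8.71% of all genes (15.2% in either direction). Timp1 and S1pr3 again overlapped.

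Sex was unevenly spread, with Y-linked expression in 5 of 5 controls and 2 of 5 nlsYAP5SA mice. Among mice with Y-linked expression only, a restriction chosen after seeing the data that leaves 2 nlsYAP5SA mice against 5 controls, 7 of the 10 genes were called, all higher, beside 1.82% of all genes tested: Gfap (2.002), Vim (1.17), Serpina3n (2.33), A2m (2.44), Cd44 (1.73), Osmr (0.86, adjusted p = 0.0496, edgeR) and Lcn2 (3.96). Timp1 (1.44, adjusted p = 0.213) and Steap4 (1.44, adjusted p = 0.160) were no longer called by edgeR. With the Y-linked level as a covariate in all 10 mice, 8 genes were called, all higher, beside 2.92% of all genes, and Timp1 was not (1.46, adjusted p = 0.0956, edgeR). All log2 fold changes kept their sign in these fits.

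The size of the rise differed between nlsYAP5SA mice. On the scale of log2(CPM + 0.5) minus the control mean, the mean over the 10 genes was 1.68, 1.69, 1.34, 1.49 and 1.84 in nlsYAP5SA replicates 1 to 5, between -0.11 and 0.14 in the controls and between -0.04 and 0.05 in C57BL/6 mice. Replicate 5 was the highest of the 5 nlsYAP5SA mice for 5 genes (Gfap, Serpina3n, Timp1, Lcn2 and Steap4). Replicate 3 was the lowest for 7 (Gfap, Vim, A2m, Timp1, Cd44, Osmr and S1pr3). Replicate 4 was mixed, highest for Cd44 and S1pr3 and lowest for Serpina3n, Lcn2 and Steap4. Replicates 3 and 4 are the nlsYAP5SA mice with Y-linked expression. The coefficient of variation was larger in nlsYAP5SA mice than in controls for 4 of the 10 genes, with 60.8% for Lcn2 and 9.12% for Cd44 as the extremes within the nlsYAP5SA group.

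**Figure D3:**
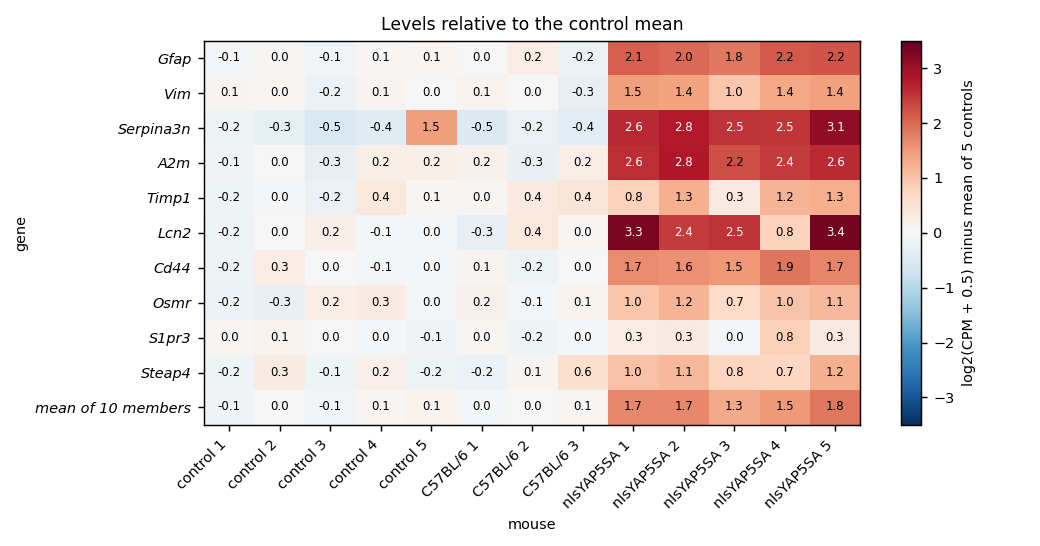
Level of each gene (rows) in each mouse (columns) as log2(CPM + 0.5) minus the mean of the 5 controls, from blue (lower) to red (higher), with the mean of the 10 genes in the last row. The 5 columns on the right (nlsYAP5SA) have row means from 1.34 to 1.84, and the single strong cell outside them is Serpina3n in control replicate 5.

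Compared between genes per length, as CPM per kilobase of exon, the order of levels changed. In controls Gfap led at 42.9, followed by Vim at 11.0, Serpina3n at 6.65, S1pr3 at 2.96, Cd44 at 1.88, A2m at 0.702, Osmr at 0.473, Timp1 at 0.438, Steap4 at 0.0919 and Lcn2 at 0.0416 CPM per kilobase. Neighbours whose ranges over mice overlapped were Vim and Serpina3n, A2m and Osmr, Osmr and Timp1, and Steap4 and Lcn2. Vim and Serpina3n overlapped through control replicate 5 alone, with 15.9 CPM per kilobase of Serpina3n, which also raised the mean of 6.65. In nlsYAP5SA mice the order was Gfap at 179, Serpina3n at 38.8, Vim at 27.8, Cd44 at 6.13, A2m at 4.41, S1pr3 at 3.83, Timp1 at 1.44, Lcn2 at 1.34, Osmr at 0.977 and Steap4 at 0.334 CPM per kilobase, with overlapping ranges for A2m and S1pr3, Timp1 and Lcn2, and Lcn2 and Osmr. Serpina3n thus stood above Vim, and S1pr3 moved from the fourth to the sixth place. In C57BL/6 mice the first 6 genes had the same order as in controls.

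Genes whose profile over the 13 mice was most like that of Gfap were ranked by the root mean square difference in log2(CPM + 0.5) minus the control mean, among the 13451 genes whose mean count was 50 or more. The 5 nearest were Ctss at 0.194 (cathepsin S), Prss23 at 0.199 (a serine protease), Loxl2 at 0.202 (a lysyl oxidase), Fst at 0.245 (follistatin) and Lyz2 at 0.247 (lysozyme of myeloid cells), beside a median of 1.29 over all genes compared. Of the reactive genes Cd44 came 10th by this measure (0.289), A2m 29th, Vim 42nd, Serpina3n 127th, Osmr 152nd and S1pr3 865th; the other 3 had fewer counts. The measure follows the size of the change as well as its shape, and every gene with a similar rise in nlsYAP5SA mice ranks high in it.

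Other genes used to describe reactive astrocytes were counted in the same comparison. Of 4 further genes known to rise in many forms of reactivity, 3 rose: the chemokine Cxcl10 (3.22), the asparaginase Aspg (2.65) and the copper-binding ferroxidase gene Cp (1.001). Cxcl10 entered the test through the nlsYAP5SA mice, with 1 to 11 counts in a control library and 19 to 92 in theirs. Hspb1 had 0.63 (adjusted p = 0.0694, edgeR). Of 12 genes of the inflammatory (A1) type 11 rose and their list had a median of 1.02, led by Iigp1 (1.91), Psmb8 (1.51), Gbp2 (1.48) and Ggta1 (1.17); the exception was Amigo2 (-0.08, adjusted p = 0.656, edgeR). Of 12 genes of the ischaemic (A2) type 10 were tested and 7 rose, with a median of 0.85, led by Ptx3 (2.203), Cd109 (1.38), Emp1 (1.27) and Clcf1 (1.13). Against C57BL/6 mice, 3 of the 4, 6 of the 12 and 7 of 11 tested genes of these lists rose and none fell. In the A1 list the calls of C3, H2-T23, Gbp2, Fbln5 and Srgn were lost there. In the A2 list Clcf1 was no longer called, while Tgm1 was tested and rose. Tgm1 did not pass the filter between C57BL/6 and control mice and thus entered through the nlsYAP5SA mice. Many genes of these lists are also made by microglia and vascular cells.

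**Figure D4:**
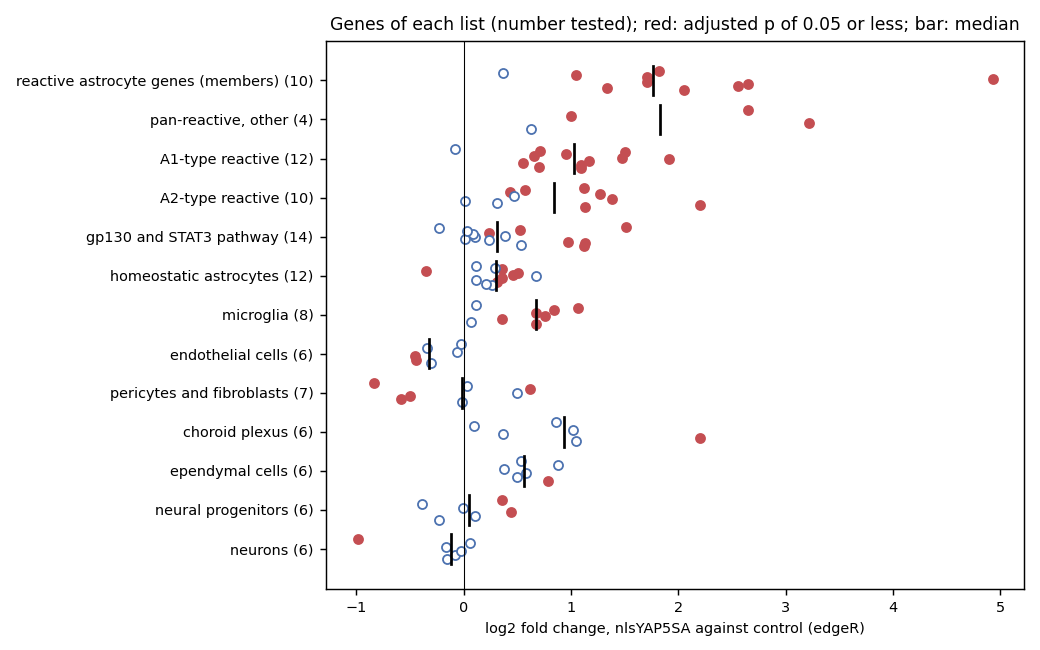
log2 fold change in nlsYAP5SA against control mice (horizontal axis, edgeR) of every tested gene of 13 of the lists (rows, number tested in brackets); filled red points have an adjusted p of 0.05 or less, and the bar is the median. The median is 1.77 for the 10 reactive astrocyte genes, 0.30 for homeostatic astrocyte genes and -0.32 for endothelial genes.

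Markers of resting astrocytes changed far less. Of 12 homeostatic astrocyte genes 5 rose and 1 fell, with a median log2 fold change of 0.30, from -0.35 (S100b) to 0.68 (Gjb6, not called). The called increases were Aldoc (0.51), Glul (0.46), Gja1 (0.36), Sox9 (0.36) and Slc1a3 (0.31). The summed level of the 12 overlapped between the groups, at 4068 to 6785 CPM in controls and 5415 to 8139 CPM in nlsYAP5SA mice. The sum of the 10 reactive genes was 260.2 to 309 CPM in controls and 910 to 1188 CPM in nlsYAP5SA mice. Most of this sum was Gfap and Vim, at 215 to 242 CPM in controls and 751 to 972 CPM in nlsYAP5SA mice. Aqp4 and Aldh1l1, defining markers of astrocytes, had 0.27 and 0.12 (adjusted p = 0.373 and 0.193, edgeR). Against C57BL/6 mice 1 of the 12 rose (Gja1) and none fell.

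Markers of other cells moved beside the reactive genes, and their part in the results was not tested. Of 8 microglial genes 6 rose, with a median of 0.68 and a summed level of 292 to 365 CPM in controls and 414 to 537 CPM in nlsYAP5SA mice; Trem2 rose most (1.06), and P2ry12 had 0.07 (adjusted p = 0.749, edgeR). Of 3 tested genes of border macrophages Cd163 rose (1.07). Of 6 endothelial genes 2 fell (Cldn5 and Cdh5), with a summed level of 196 to 233 CPM in controls and 154 to 204 CPM in nlsYAP5SA mice. Of 7 genes of pericytes and fibroblasts 3 fell and 1 rose, with summed levels of 322 to 438 and 267 to 419 CPM. Of 6 ependymal genes Foxj1 rose, with summed levels of 11.4 to 24.9 and 23.96 to 27.9 CPM, and of 6 progenitor genes Pax6 and Hopx rose, with summed levels of 303 to 414 and 232 to 434 CPM. Against control, no gene of the oligodendrocyte list was called (median -0.48), and of the neuronal list Neurod6 was the only one. Against C57BL/6 mice the myelin genes Mag and Mog fell by 1.02 and 1.20 on the log2 scale, 4 of the 8 microglial genes rose, and none of the endothelial genes was called. None of the genes of these lists was called between C57BL/6 and control mice.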

How the data were processed

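Samples were grouped by the labels, and all 13 columns were used. The values are RSEM's estimated counts, deposited as a single gene table: reads of KAPA mRNA HyperPrep libraries were trimmed with CutAdapt 1.5, mapped to GRCm38 with STAR (version 2.2.2a in the submitters' processing notes) and counted with RSEM 1.3.0, which divides reads between similar genes. No strand setting is named in the sources used here. Values that were not whole made up 12.4% to 13.3% of a sample, and all were rounded. Names and positions came from GENCODE M21 for 48349 of 48795 genes. No 2 replicates were alike within sampling noise (lowest chi-square per degree of freedom 6.34).

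Groups were compared with edgeR 4.0.16 in R 4.3.3 (TMM, filterByExpr with a minimum count of 10 and total of 15, quasi-likelihood test, two-sided, Benjamini-Hochberg adjustment over all genes tested), using only the groups compared. edgeR was tested on simulated data. Alternatives were DESeq2 1.42.0, other scalings and filters, 1 fit of all samples, Y-linked and Ttr covariates, a replicate block and leaving out each mouse. Tables were made with Python 3.11.15 and pandas 2.3.3, figures with matplotlib 3.10.9. Named genes were all 10 reactive genes, up to 4 called genes of each list with the largest change, STAT3 pathway genes, paralogs and the 5 genes most like Gfap; other list members, Syn1 and Gm26668 were named after their values were seen. The 10 genes, the lists and the tests were chosen with earlier results of these data known. The study itself reported GFAP and vimentin as increased in both mRNA and protein in nlsYAP5SA brains. p-values measure the spread between mice, and counting limits cover counting error only. One check of the tissue is not reported here.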

Additional observations from a re-analysis of the deposited data

Results flagged for a closer look

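In 2 of 20 groups of 5 mice (10 genes in controls and in nlsYAP5SA mice), 1 mouse stood apart by Dixon's test at 95%, which chance alone gives in about 1 in 20 groups. Serpina3n in control replicate 5 was 32.8 CPM, far above the other 4 controls. Vim in nlsYAP5SA replicate 3 was 102.7 CPM, below the other 4 nlsYAP5SA mice and above all controls; without this mouse the log2 fold change of Vim was 1.42 (adjusted p = 4.63e-07, edgeR).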

How the results depend on the processing

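For the 10 genes in nlsYAP5SA against control mice, none of the alternatives turned a direction. Over single genes and alternatives, 192 values stayed on their side of the threshold, 3 lost the call (Timp1 with the Y-linked covariate, and Timp1 and Steap4 in mice with Y-linked expression only) and S1pr3 gained it in 2, as given above. The number called was 9, and 6 to 10 over the alternatives. At least 10 counts in every sample left 7 genes, of which 6 were called, beside 1086 called higher among 15094 genes. With each mouse left out the number called was 9 to 10. In nlsYAP5SA against C57BL/6 mice 7 were called, 6 to 8 with each mouse left out, and 4 (Gfap, Serpina3n, A2m and Cd44) among mice with Y-linked expression, where 2 mice faced 2. In C57BL/6 against control mice 0 were called in every alternative, edgeR and DESeq2.

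Same-numbered nlsYAP5SA and control mice had correlations of their deviations between -0.331 and 0.238. For C57BL/6 and control replicates 1 to 3 they were 0.0788, -0.139 and 0.402. So few pairs cannot decide whether replicate numbers pair the samples. With the replicate block, 9 of the 10 genes were called against control and 5 against C57BL/6, where Osmr and Lcn2 were lost, and over all genes 1239 were called against control.

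Over all genes, 1761 were called in nlsYAP5SA against control mice, but 542 with the Y-linked covariate and 334 among mice with Y-linked expression. Against C57BL/6 mice 1061 were called, but 47 with the replicate block, 47 among mice with Y-linked expression, 401, 581 and 1757 without C57BL/6 replicates 1, 2 and 3, and 636, 645 and 509 without nlsYAP5SA replicates 1, 2 and 5. Between C57BL/6 and control mice 28 were called, but 16 with at least 10 counts in every sample, 59 with DESeq2, 44 in 1 fit of all samples and 15 with the block. The causes were not tested. Lcn2, Timp1 and Steap4 are limited by depth, with at most 15 counts in a control library.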
